A study of Mus musculus with 6 samples.

Results

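Matricellular proteins are secreted into the extracellular matrix, where they act less as structural elements than as modulators of how cells attach to and sense that matrix. Fibronectin, which cells assemble into fibrils through integrins, is the scaffold on which several of them are deposited. In skin many of them are low at rest and are made by fibroblasts, keratinocytes or macrophages during wound repair and in the stroma of carcinomas, and many are read by the integrins that kindlins help to activate. The 10 genes described here are Fn1 (fibronectin), Tnc (tenascin-C), Thbs1 and Thbs2 (thrombospondins), Postn (periostin), Tgfbi (its closest relative), Sparc, Smoc1 and Smoc2 (calcium-binding proteins of the SPARC family) and Spp1 (osteopontin). They were taken by symbol from the 37991 Ensembl genes listed in the count tables. All 10 were found, and all 10 were among the 11887 genes that passed the expression filter.

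RNA had been sequenced from mouse tumours of a cutaneous squamous cell carcinoma (cSCC) line, a cancer of epidermal keratinocytes. In the Kindlin-1 Null group (3 libraries) the line lacked Kindlin-1 through knockout. In the Kindlin-1 WT group (3 libraries) it expressed Kindlin-1, the integrin adaptor encoded by Fermt1, and the comparison asked how expression differs between the 2 kinds of tumour. Strain, age, host genotype, time of growth, treatment and the number of clones behind each line are not given in the labels, and the tumours were profiled whole, so that host stroma and carcinoma cells were measured together. In such bulk samples, fewer cells of a type and less RNA per cell cannot be told apart.

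Depth was uneven. Reads in genes came to 1138318, 31487255 and 5226493 in Null libraries 1 to 3 and to 1283566, 161711 and 15529242 in WT libraries 1 to 3, which limits what WT library 2 can show for weak genes. The titles give Null libraries 2 and 3 the same mouse number, and WT libraries 1 and 2 another, so n = 3 counts libraries, which may come from 2 animals a group, and p-values measure the spread between libraries. Fermt1 had 0, 2 and 2 reads in the Null libraries and 16, 2 and 1040 reads in the WT libraries, so its values went with the labels. Of 17 keratinocyte markers, Krt1 and Dsg3 had no read in any library and Krt5 had at most 5 in any 1, while Krt14, Krt18, Trp63, Itga6 and Itgb4 were detected in all 6. Levels below are read counts scaled to library size (CPM) after TMM scaling, a correction for library composition, and fold changes are Null over WT, on the log2 scale where so named.

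The 10 genes did not move as a group. Of the 10, 3 fell in Null tumours (Smoc1, Smoc2 and Tnc), 2 rose (Postn and Thbs2) and 5 did not pass the test (Sparc, Spp1, Thbs1, Tgfbi and Fn1), by the quasi-likelihood test of edgeR at a threshold of 0.05 after Benjamini-Hochberg adjustment over all genes. Over all genes tested, 5.79% passed, with 2.26% higher and 3.52% lower in Null tumours. The median log2 fold change of the 10 genes was 0.01, and that of all tested genes was also 0.01. The 3 Null values lay on 1 side of the 3 WT values for 6 of the 10 genes, against 30.5% of all tested genes. Together the 10 genes took 1.5%, 1.36% and 1.37% of the reads in Null libraries 1 to 3 and 1.41%, 1.37% and 0.904% in WT libraries 1 to 3. The widest exact 95% binomial interval of these shares, which covers counting error only, was 1.31% to 1.42% in WT library 2. The low share of WT library 3 went with lower Sparc, Fn1 and Postn there.

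**Figure D1:**
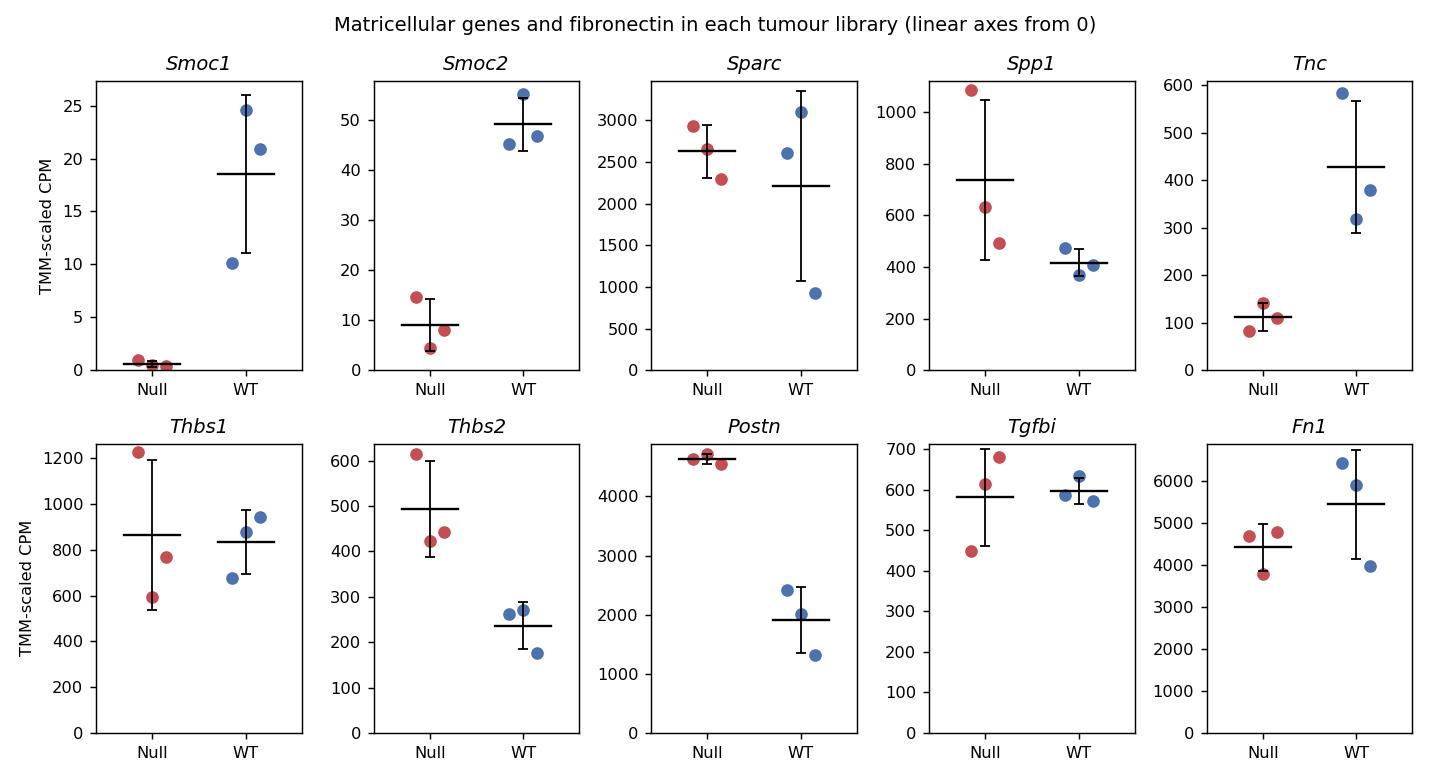
TMM-scaled CPM of each gene (vertical axes, linear from 0) in the 3 Null and the 3 WT libraries, with 1 point per library, numbered 1 to 3 from left to right within a group; lines are means and bars SD over 3 libraries. The groups do not overlap for Smoc1, Smoc2, Tnc, Thbs2, Postn and Spp1, and overlap for Sparc, Thbs1, Tgfbi and Fn1.

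Smoc1 and Smoc2, close relatives of SPARC that are found at basement membranes and bind calcium through a shared domain type, were the members with the largest differences. Smoc1 (ENSMUSG00000021136) had 1, 15 and 2 reads in Null libraries 1 to 3, against 13, 4 and 335 reads in WT libraries 1 to 3. This came to 0.921, 0.475 and 0.393 CPM in the Null libraries and 10.2, 24.6 and 20.9 CPM in the WT libraries. All Null values were below 1 CPM and all WT values were at or above 10, with WT library 1 the lowest of the 3. Smoc1 fell 35.0-fold (log2 fold change -5.13, SE 0.55, edgeR adjusted p = 0.000289). Over pooled reads the ratio of Null to WT was 0.0237 (95% exact interval 0.0139 to 0.0380), and without Null library 2, which held 15 of the 18 Null reads, it was 0.0241 (0.00495 to 0.0711). These intervals cover counting error only. In both ratios the WT side rested mostly on WT library 3, which held 335 of the 352 WT reads.

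Smoc2 (ENSMUSG00000023886) stood at 14.7, 4.47 and 8.07 CPM in the Null libraries and at 45.3, 55.3 and 46.9 CPM in the WT libraries. The WT values lay close together, and the lowest of them was 3.07 times the highest Null value. Smoc2 fell 6.29-fold (log2 fold change -2.65, SE 0.40, edgeR adjusted p = 0.00308). Both calls held in each of the 6 fits that left out 1 library, with highest edgeR adjusted p values of 0.0187 for Smoc1 and 0.0105 for Smoc2. Within a library the ratio of Smoc1 to Smoc2 reads was 0.0488 to 0.106 in the Null libraries and 0.224 to 0.445 in the WT libraries, lower in every Null library. Smoc2 had 16, 141 and 41 reads in Null libraries 1 to 3 and 58, 9 and 752 reads in WT libraries 1 to 3. With only 1 Smoc1 read in Null library 1 and 4 in WT library 2, these ratios are coarse. An exact permutation test on the log ratio gave a two-sided p of 0.1, the smallest that 3 against 3 libraries can give, and the pair was chosen after the values were seen.

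Sparc (ENSMUSG00000018593), a collagen-binding glycoprotein and the founder of that family, did not follow its relatives. Per exon length its mean level was 4064 times that of Smoc1 and 530.3 times that of Smoc2 in Null tumours, and 110.1 and 82.5 times in WT tumours. It stood at 2929, 2660 and 2293 CPM in the Null libraries and at 2610, 3096 and 929 CPM in the WT libraries. The groups overlapped, and WT library 3 lay far below the other 5 libraries. The log2 fold change was 0.26 (SE 0.40, edgeR adjusted p = 0.72), and -0.14 without WT library 3. In that library the summed fibroblast markers were also low (9570 CPM, against 18425 and 17964 CPM in WT libraries 1 and 2), and their part in the Sparc value was not tested.

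Tenascin-C, a hexameric matrix protein that weakens the adhesion of cells to fibronectin, was the third member that fell. Tnc (ENSMUSG00000028364) stood at 82.9, 141 and 110 CPM in the Null libraries and at 584, 319 and 379 CPM in the WT libraries. The lowest WT value was 2.26 times the highest Null value. Tnc fell 3.84-fold (log2 fold change -1.94, SE 0.31, edgeR adjusted p = 0.0039), and its call held in each fit with 1 library left out (highest edgeR adjusted p = 0.0343, without Null library 1).

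Periostin and Tgfbi share a series of fasciclin domains and bind collagens and integrins, and only the first passed the test. Postn (ENSMUSG00000027750) stood at 4637, 4719 and 4549 CPM in the Null libraries and at 2418, 2015 and 1316 CPM in the WT libraries. The 3 Null values lay within 1.04-fold of each other, whereas the WT values spread over a 1.84-fold range, and the groups did not overlap. Postn rose 2.42-fold (log2 fold change 1.28, SE 0.32, edgeR adjusted p = 0.0357). The call was lost without WT library 2 (edgeR adjusted p = 0.0736) or without Null library 1 (0.0966), 2 (0.0752) or 3 (0.121), although the log2 fold change stayed between 1.04 and 1.5. Summing the libraries that share a mouse number in both groups (edgeR adjusted p = 0.166), or in the WT group alone (0.0751), also ended it.

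Tgfbi (ENSMUSG00000035493) stood at 449, 614 and 682 CPM in the Null libraries and at 587, 633 and 571 CPM in the WT libraries. The Null values spanned the WT values, and the log2 fold change was -0.03 (SE 0.27, edgeR adjusted p = 0.952). The ratio of Postn to Tgfbi reads within a library was 10.3, 7.69 and 6.68 in the Null libraries and 4.12, 3.18 and 2.30 in the WT libraries (exact permutation test on the log ratio, two-sided p = 0.1, the smallest possible; pair chosen after the values were seen).

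The thrombospondins Thbs1 and Thbs2 are trimeric proteins that bind CD36 and CD47 and restrain the growth of blood vessels, and Thbs1 also activates latent TGF-beta. Thbs2 (ENSMUSG00000023885) stood at 615, 422 and 443 CPM in the Null libraries and at 263, 270 and 176 CPM in the WT libraries. All Null values were above all WT values, with Null library 1 the highest. Thbs2 rose 2.12-fold (log2 fold change 1.08, SE 0.29, edgeR adjusted p = 0.0445), just inside the threshold. Its call was lost without any 1 of the 6 libraries (edgeR adjusted p between 0.063 without WT library 1 and 0.139 without Null library 1), and when libraries sharing a mouse number were summed in both groups (0.122) or in the WT group alone (0.0736). The log2 fold change in the fits with 1 library left out was 0.87 to 1.20.

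Thbs1 (ENSMUSG00000040152) stood at 1229, 592 and 770 CPM in the Null libraries and at 675, 879 and 943 CPM in the WT libraries. The Null libraries held both the highest and the lowest value, and the log2 fold change was 0.05 (SE 0.32, edgeR adjusted p = 0.936). Thbs2 reads per Thbs1 read were 0.501, 0.712 and 0.576 in the Null libraries and 0.390, 0.308 and 0.187 in the WT libraries, a pair also chosen after its values were seen (exact permutation test on the log ratio, two-sided p = 0.1, the smallest possible). In the later mouse annotation used for symbols, Thbs2 and Smoc2 are adjacent protein-coding genes on chromosome 17, and the first rose while the second fell.

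Osteopontin, an acidic phosphoprotein made by macrophages and carcinoma cells that binds integrins and CD44, was higher in every Null library without passing the test. Spp1 (ENSMUSG00000029304) stood at 1084, 630 and 493 CPM in the Null libraries and at 475, 369 and 408 CPM in the WT libraries. The lowest Null and the highest WT value differed by little, and Null library 1 lay far above the others. The log2 fold change was 0.81 (SE 0.32, edgeR adjusted p = 0.14), and 0.42 without Null library 1 (0.426). Of 15 macrophage markers 1 rose and 0 fell in edgeR (1 was lower at an unadjusted p under 0.05, and 1 in DESeq2). The edgeR shares over all tested genes were 2.26% higher and 3.52% lower. Summed macrophage levels were 9902 to 12573 CPM in the Null libraries and 6056 to 12613 CPM in the WT libraries. The marker that rose was Gpnmb, a membrane glycoprotein of lipid-laden macrophages (log2 fold change 1.54, edgeR adjusted p = 0.0146, or 0.0652 without Null library 1).

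The order of fibronectin and periostin per kb of exon differed between the groups, although Fn1 itself did not pass the test. Per kb of exon, Fn1 averaged 378 CPM and Postn 533 CPM in Null tumours, against 466 and 220 CPM in WT tumours, with no overlap between the genes in either group. Fn1 (ENSMUSG00000026193) stood at 4690, 3775 and 4786 CPM in the Null libraries and at 6439, 5910 and 3973 CPM in the WT libraries. The groups overlapped through WT library 3, and the log2 fold change was -0.30 (SE 0.31, edgeR adjusted p = 0.573; 0.194 without WT library 3, the lowest of the fits with 1 library left out). Without correction for length, Postn reads per Fn1 read were 0.989, 1.25 and 0.951 in the Null libraries and 0.376, 0.341 and 0.331 in the WT libraries. By reads, Fn1 was thus above Postn in Null libraries 1 and 3 and in every WT library. Tnc reads per Fn1 read were 0.0177, 0.0375 and 0.0231 in the Null libraries and 0.0907, 0.0541 and 0.0955 in the WT libraries. For Postn against Tnc, which moved in opposite directions, the ratio was 33.4 to 55.9 in the Null libraries and 3.47 to 6.31 in the WT libraries, a 9.47-fold difference of the geometric means. The ratios to Fn1 each separated the groups (exact permutation test on the log ratio, two-sided p = 0.1, the smallest possible). Postn over Tnc had to separate them, because neither gene overlapped between the groups and they moved in opposite directions. Its p of 0.1 in the same permutation test was thus fixed beforehand. That ratio is also the quotient of the ratios to Fn1. All 3 were chosen after the values were seen.

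**Figure D2:**
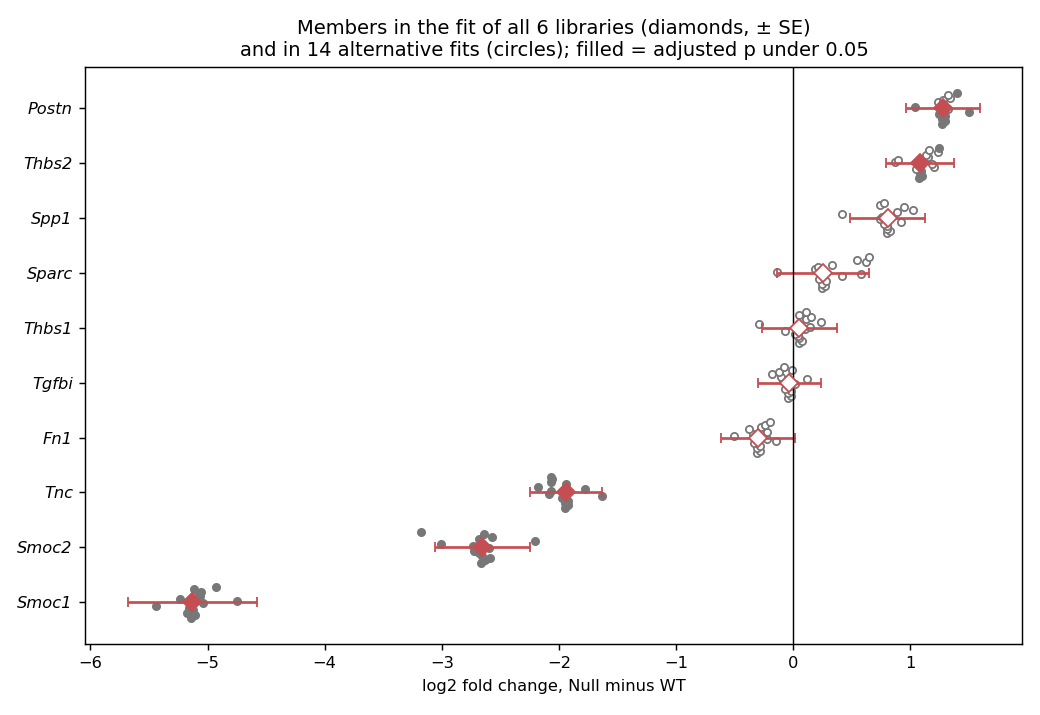
Log2 fold change (horizontal axis, Null minus WT) of each member in the fit of all 6 libraries (diamonds with SE bars) and in 14 alternative fits (circles), filled where the adjusted p was under 0.05. Smoc1, Smoc2 and Tnc are filled in every fit, Postn and Thbs2 in some, and the other 5 members in none.

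Compared per length, the range from Sparc to Smoc1 was far wider in Null than in WT tumours. Levels here are TMM-scaled CPM per kb of annotated exon. In Null tumours the order of mean levels was Sparc (694 ± 84.3), Postn (533 ± 9.76), Spp1 (447 ± 188), Fn1 (378 ± 47.8), Tgfbi (154 ± 31.8), Thbs1 (142 ± 54.1), Thbs2 (70.5 ± 15.1), Tnc (14.4 ± 3.77), Smoc2 (1.31 ± 0.75) and Smoc1 (0.171 ± 0.0812; SD, n = 3). Among neighbours in that order, Postn and Spp1, Spp1 and Fn1, and Tgfbi and Thbs1 overlapped between libraries. In WT tumours the order was Sparc (584 ± 300), Fn1 (466 ± 111), Spp1 (253 ± 32.5), Postn (220 ± 64.1), Tgfbi (158 ± 8.47), Thbs1 (137 ± 23.0), Tnc (55.0 ± 17.8), Thbs2 (33.8 ± 7.49), Smoc2 (7.07 ± 0.772) and Smoc1 (5.30 ± 2.14; SD, n = 3). Here Sparc and Fn1, Spp1 and Postn, Postn and Tgfbi, Tgfbi and Thbs1, and Smoc2 and Smoc1 overlapped. Postn thus had rank 2 in Null and rank 4 in WT tumours, and Tnc stood below Thbs2 in Null and above it in WT tumours, in each case with no overlap between Tnc and Thbs2.

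**Figure D3:**
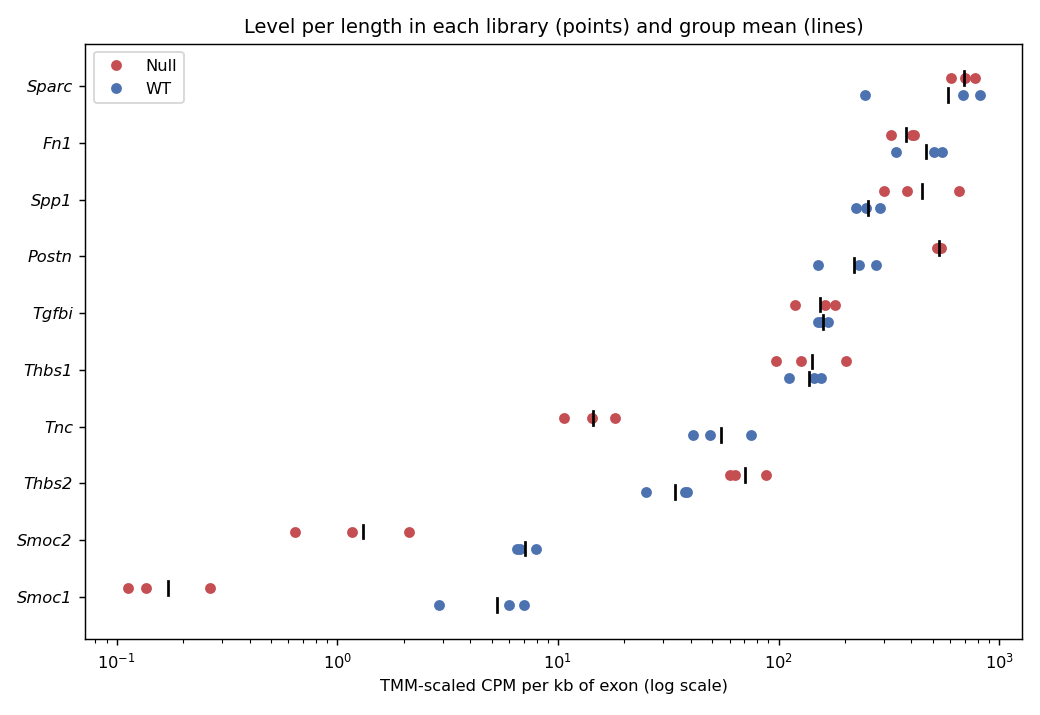
TMM-scaled CPM per kb of exon (horizontal log axis) of the 10 members in each Null library (upper points) and WT library (lower points), with black lines for the means of 3 libraries. Tnc and Thbs2 exchange places between the groups, and Smoc1 and Smoc2, which overlap in WT tumours, lie apart in Null tumours.

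Promoter sequence was at hand from RefSeq (build GRCm38.p6) for 6 of the 10 members, 9 start sites in all, among them 3 of the 5 members that passed the test. These are shown because Tnc fell while Postn and Thbs2 rose. Each window runs from 250 bases before to 50 bases after the start, 5′ to 3′ on the strand of the gene. Capitals mark matches, on either strand, to TATAAA and to GTCTG, the core that SMAD proteins bind; no matches overlapped. The windows are chr4:64046966-64047265 for Tnc (minus strand, the more upstream of its 2 overlapping starts), chr17:14694213-14694512 for Thbs2 (minus strand), and chr3:54359017-54359316 and chr3:54360857-54361156 for Postn starts 1 and 2 (plus strand).
Tnc: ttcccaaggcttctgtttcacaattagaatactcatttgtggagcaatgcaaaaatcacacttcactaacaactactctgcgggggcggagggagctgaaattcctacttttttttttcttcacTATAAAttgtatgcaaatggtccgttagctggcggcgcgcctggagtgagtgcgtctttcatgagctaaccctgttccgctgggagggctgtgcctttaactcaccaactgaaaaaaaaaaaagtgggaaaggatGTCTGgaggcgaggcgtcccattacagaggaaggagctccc
Thbs2: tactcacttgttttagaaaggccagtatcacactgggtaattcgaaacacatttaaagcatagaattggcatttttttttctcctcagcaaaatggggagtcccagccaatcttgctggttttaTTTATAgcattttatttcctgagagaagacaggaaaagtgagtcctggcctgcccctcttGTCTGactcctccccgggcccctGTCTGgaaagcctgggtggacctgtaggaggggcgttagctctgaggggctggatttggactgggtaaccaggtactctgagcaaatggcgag
Postn start 1: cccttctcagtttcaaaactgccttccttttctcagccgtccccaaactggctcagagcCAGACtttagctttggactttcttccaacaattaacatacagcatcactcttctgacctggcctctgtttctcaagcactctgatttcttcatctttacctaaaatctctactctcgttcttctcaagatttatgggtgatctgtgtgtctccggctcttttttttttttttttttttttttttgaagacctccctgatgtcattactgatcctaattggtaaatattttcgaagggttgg
Postn start 2: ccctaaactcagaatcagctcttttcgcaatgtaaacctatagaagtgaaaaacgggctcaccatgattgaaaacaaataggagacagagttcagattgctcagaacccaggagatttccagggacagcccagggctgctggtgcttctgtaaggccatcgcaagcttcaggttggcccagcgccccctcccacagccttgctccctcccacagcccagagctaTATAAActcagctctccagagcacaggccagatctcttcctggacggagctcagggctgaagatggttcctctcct
The GTCTG core was present once in the printed Tnc window, at base 10 after the start, 2 times in the window of the other Tnc start (at bases -70 and 40), 2 times in the Thbs2 window, once in the Postn start 1 window and not in the Postn start 2 window, and 49.7% of the 27025 promoters of the same length in the table hold it. TATAAA was found in both Tnc windows, in the Thbs2 window on the other strand and, at base -26, in the Postn start 2 window, against 14.2% of all promoters. Because the 2 Tnc windows overlap, their TATAAA is the same stretch of bases, as is their GTCTG at base 10 and base -70. Members that did not pass held these letters too: GTCTG in the windows of Sparc, Tgfbi and both Spp1 starts, and TATAAA in that of Spp1 start 1. Neither the AP-1 letters TGANTCA (7.93% of all promoters) nor the TEAD letters GGAATG (14.6%) were found on either strand in any of the 9 windows of members. A match describes letters and not binding.

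Genes that belong to the same families, bind these proteins or process them were read from 4 lists of 65 genes, of which 52 were tested. Of these 52, 4 rose and 6 fell. For comparison, 2.26% of all tested genes rose and 3.52% fell. Their median log2 fold change was -0.16, against 0.01 over all tested genes. Among 24 family relatives 15 were tested, 1 rose and 4 fell, with a median of -0.75. Spock3 and Ibsp had no read in any library, and Comp, Tnr, Spock1, Spock2, Ccn6, Vtn and Dmp1 were too low to test.

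Both tenascin and thrombospondin families were split. Tnn, tenascin-W, which is found in the stroma of tumours, stood at 373, 280 and 313 CPM in the Null libraries and at 75.0, 55.3 and 24.2 CPM in the WT libraries. It rose 6.66-fold (log2 fold change 2.74, SE 0.39, edgeR adjusted p = 0.00228; log2 fold change 3.40 without WT library 1), the opposite direction to Tnc, and kept its call without each library. Tnxb, tenascin-X of loose connective tissue, fell (log2 fold change -2.36, SE 0.61, edgeR adjusted p = 0.0414). It was named after its values were seen. Tnxb passed the expression filter in 3 of the 6 leave-one-out fits, and none of those 3 called it: the fits without WT library 1 (log2 fold change -1.45, edgeR adjusted p = 0.171), WT library 2 or Null library 1. Thbs4, a pentameric thrombospondin of muscle and tendon, stood at 0, 6.21 and 1.97 CPM in the Null libraries and at 98.4, 61.4 and 40.6 CPM in the WT libraries. It fell 16.5-fold (log2 fold change -4.04, SE 0.55, edgeR adjusted p = 0.00147), or by 5.45 on the log2 scale without Null library 2, and kept its call without each library. Ccn2, a connective tissue growth factor of the CCN family, fell 3.89-fold (edgeR adjusted p = 0.0189, lost without WT library 3 at 0.0959 and without Null library 1), and Fstl1, a follistatin-like member of the SPARC family, fell 2.53-fold (0.019, lost without WT library 1, Null library 1 or Null library 3, highest edgeR adjusted p = 0.0957). When mouse number was fitted as a random effect, Ccn2 (limma-voom adjusted p = 0.0882), Fstl1 (0.0511) and Tnxb (0.0817) lost their calls. Summing the libraries of a shared mouse number in both groups also ended those of Fstl1 (edgeR adjusted p = 0.0915) and Tnxb (0.076; 0.0596 with the WT pair alone).

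Of 17 receptor genes 14 were tested, 1 rose and 1 fell, both near the threshold (over all tested genes, 2.26% rose and 3.52% fell). Sdc4, the syndecan that binds fibronectin beside integrins, stood at 545, 369 and 387 CPM in the Null libraries and at 222, 172 and 220 CPM in the WT libraries (log2 fold change 1.06, SE 0.27, edgeR adjusted p = 0.0395). Itga5, the alpha chain of the main fibronectin receptor, stood at 120, 133 and 124 CPM in the Null libraries and at 212, 190 and 301 CPM in the WT libraries (log2 fold change -0.93, SE 0.25, edgeR adjusted p = 0.0494). The Itga5 call was lost without any 1 of the 6 libraries (highest edgeR adjusted p = 0.178), and that of Sdc4 without any but WT library 3 (highest 0.135). Both were also lost with libraries of a shared mouse number summed, in both groups (edgeR adjusted p = 0.172 for Itga5 and 0.191 for Sdc4) or in the WT group alone (0.0606 and 0.0923), and that of Itga5 with upper-quartile scaling (0.0519) or no filter (0.0604). Itgb5 (log2 fold change -0.76, edgeR adjusted p = 0.174) and Itga4 (-0.65, 0.254) came next in the list and did not pass.

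Among 14 enzymes that cleave, crosslink or phosphorylate these proteins, 13 were tested, 1 rose and 0 fell in edgeR (4 were lower at an unadjusted p under 0.05, and 1 in DESeq2). The edgeR shares over all tested genes were 2.26% higher and 3.52% lower. Mmp3, stromelysin-1, whose substrates include fibronectin, tenascin-C and osteopontin, stood at 2025, 1208 and 967 CPM in the Null libraries and at 122, 73.7 and 57.5 CPM in the WT libraries. It rose 16.5-fold (log2 fold change 4.04, SE 0.41, edgeR adjusted p = 0.00023) and kept its call without each library. Lox, lysyl oxidase, which crosslinks collagen and is brought to the matrix with periostin, stood at 12.9, 14.4 and 1.97 CPM in the Null libraries and at 30.5, 36.9 and 34.0 CPM in the WT libraries without passing (log2 fold change -1.78, SE 0.53, edgeR adjusted p = 0.0667). Mmp2 (-1.11, edgeR adjusted p = 0.109) and Mmp12 (-1.02, 0.14) did not pass.

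TGF-beta is the classical inducer of Tgfbi, Postn, Tnc and Fn1. Of its 10 listed pathway genes 1 rose and 1 fell (over all tested genes, 2.26% rose and 3.52% fell). Tgfb2 stood at 60.8, 57.4 and 54.1 CPM in the Null libraries and at 16.4, 18.4 and 21.1 CPM in the WT libraries. It rose 2.97-fold (log2 fold change 1.57, SE 0.26, edgeR adjusted p = 0.00545) and kept its call without each library. Tgfb3 stood at 94.9, 158 and 124 CPM in the Null libraries and at 440, 362 and 202 CPM in the WT libraries. It fell 2.61-fold (log2 fold change -1.39, SE 0.32, edgeR adjusted p = 0.0283), and its call was lost without WT library 1 or 2 or Null library 1 or 3 (highest edgeR adjusted p = 0.12). It was lost as well when libraries sharing a mouse number were summed in both groups (edgeR adjusted p = 0.0838) or in WT alone (0.062), and narrowly with the random effect (limma-voom adjusted p = 0.0505). Smad3 (log2 fold change -0.71, edgeR adjusted p = 0.166) did not pass.

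**Figure D4:**
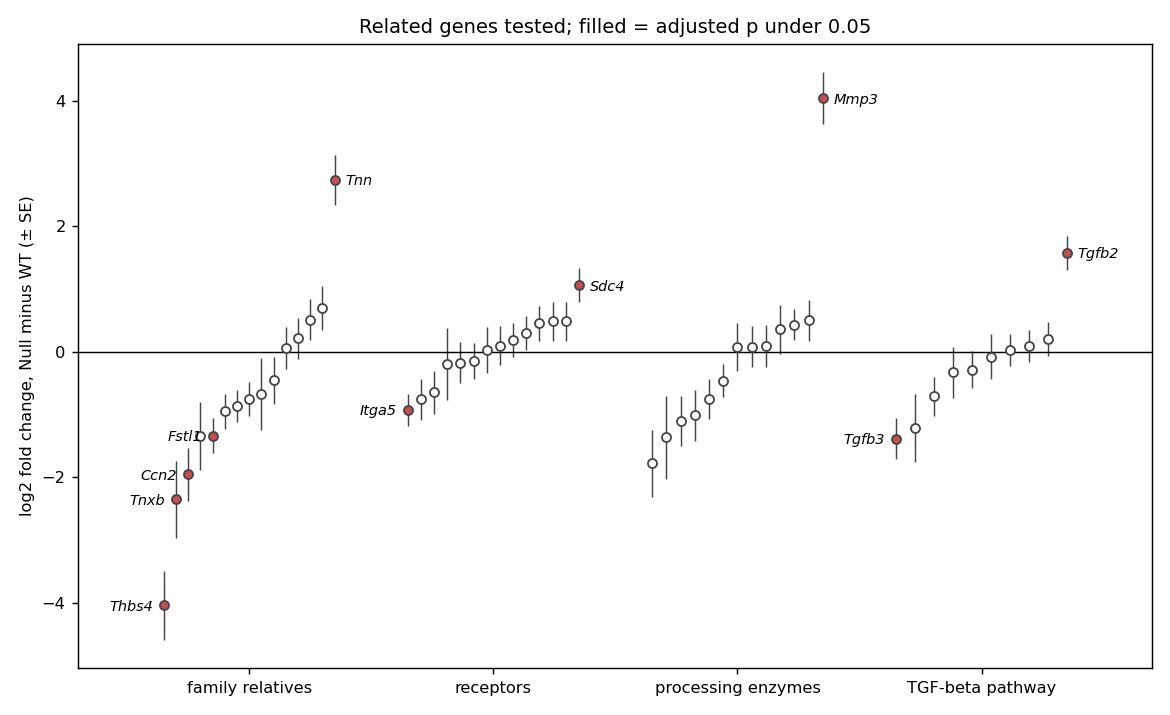
Log2 fold change (vertical axis, Null minus WT, with SE bars) of the 52 tested genes in the 4 related lists, ordered within each list and filled where the adjusted p was under 0.05. In each list most points are open, and Thbs4, Tnn and Mmp3 lie farthest from 0.

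Some markers of other cell types were also called lower in Null tumours (over all tested genes, 2.26% rose and 3.52% fell). Of 20 skeletal muscle markers 19 were tested, 16 fell and 0 rose in edgeR (16 and 0 in DESeq2, and 18 and 0 at an unadjusted p under 0.05), while 9 passed in limma-voom with mouse number as a random effect. Their summed level was 62.8 to 156 CPM in the Null libraries and 705 to 1889 CPM in the WT libraries. No muscle marker was at 0 in all libraries. Of these, Des, Ttn and Ryr1 fell by 3.61, 4.58 and 4.09 on the log2 scale (edgeR adjusted p = 0.00023, 0.000289 and 0.000289), Ttn by 5.69 without Null library 2. In WT libraries 1 to 3 the muscle sum was 1889, 995 and 705 CPM, and Tnc stood at 584, 319 and 379 CPM. Smoc1 stood at 10.2, 24.6 and 20.9 CPM there, and Smoc2 at 45.3, 55.3 and 46.9 CPM. The Smoc1 values of WT libraries 1 and 2 rested on 13 and 4 reads. Of 8 adipocyte markers 4 were tested and 3 fell, with sums of 43.5 to 94.0 CPM in the Null libraries and 98.9 to 255 CPM in the WT libraries. Of those that fell, Cfd kept its call without each library. Lpl lost it without WT library 1 or Null library 1 or 3 (highest edgeR adjusted p = 0.0811). Car3 lost it without WT library 1 or 2 or Null library 1 or 3 (highest 0.105), and with the random effect (limma-voom adjusted p = 0.309). Of 11 pericyte and smooth muscle markers 9 were tested and 2 fell, with sums of 493 to 625 CPM in the Null libraries and 471 to 872 CPM in the WT libraries. The steadier of the pair was Cspg4, the NG2 proteoglycan, at 5.53, 4.28 and 5.31 CPM in the Null libraries and 49.97, 49.1 and 51.4 CPM in the WT libraries (log2 fold change -3.38, edgeR adjusted p = 0.000125); Notch3 (-1.82, 0.0398) lost its call without any 1 library and in all 3 fits that use the mouse numbers (lowest adjusted p = 0.0592, in limma-voom). Their part in the fall of Smoc1, Smoc2 and Tnc was not tested.

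Markers of fibroblasts, a usual source of periostin and thrombospondin-2, were called in both directions. Of 15, 3 rose and 2 fell (over all tested genes, 2.26% rose and 3.52% fell). The fibroblast sums were 18509 to 21003 CPM in the Null libraries and 9570 to 18425 CPM in the WT libraries. Lum, lumican, rose 7.58-fold (log2 fold change 2.92, edgeR adjusted p = 0.000384). Prrx1, a mesenchymal transcription factor, rose 2.39-fold (edgeR adjusted p = 0.0139). Its call was lost without Null library 1 (edgeR adjusted p = 0.0587) or 3 (0.0544), and after summing by mouse number in both groups (0.103). Thy1, a surface glycoprotein, fell 3.07-fold (edgeR adjusted p = 0.00501). Of 17 keratinocyte markers 11 were tested, 1 rose and 2 fell, with sums of 435 to 442 CPM in the Null libraries and 449.6 to 669.6 CPM in the WT libraries. Those that fell were Perp, a desmosome-associated protein (log2 fold change -1.89, edgeR adjusted p = 0.00273), and the basal keratin Krt14 (-2.04, 0.01). With the random effect Krt14 did not pass (limma-voom adjusted p = 0.0502). Krt15 rose (log2 fold change 2.26, edgeR adjusted p = 0.0283). Its call was lost without WT library 3 (1.56, 0.204) or Null library 1 (1.92, 0.107). None of 10 endothelial markers passed in edgeR (0 at an unadjusted p under 0.05, and 0 in DESeq2 and in limma-voom), and their sums were 279 to 373 CPM in the Null libraries and 210 to 299 CPM in the WT libraries. The part of these markers in the changes of Postn, Thbs2 and Tnc was not tested.

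**Figure D5:**
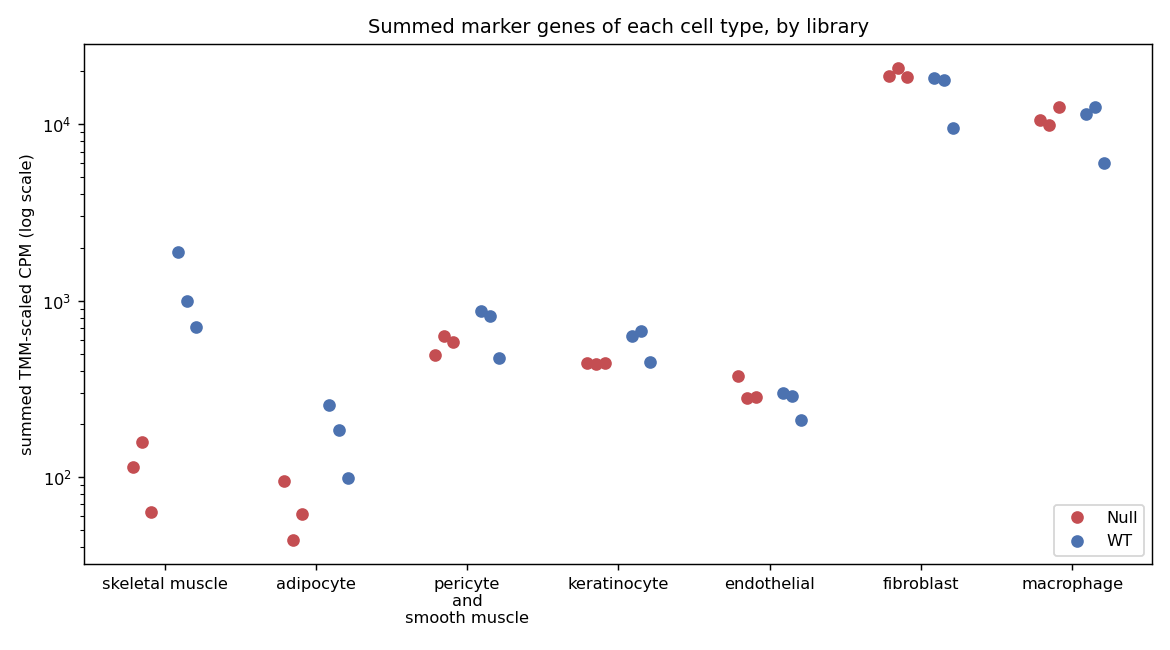
Summed TMM-scaled CPM (vertical log axis) of each list of cell type markers, with 1 point per library for the 3 Null and the 3 WT libraries. The muscle sums lie at 62.8 to 156 CPM in Null and 705 to 1889 CPM in WT libraries. WT library 3, the right-hand WT point, is the lowest of the 6 for fibroblast, macrophage, endothelial, and pericyte and smooth muscle markers.

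For each member that passed, the genes with the most similar profile over the 6 libraries were taken, by the root mean square difference of centred log2 levels among 9972 genes averaging at least 10 CPM. Closest to Postn were Psmb5, a proteasome subunit (0.0872 log2 units), Dcn, the fibroblast proteoglycan decorin (0.123), and Antxr1, a collagen-binding membrane receptor (0.141). Thbs2 was nearest to AI413582 (0.0439), the selenium carrier Selenop (0.0667) and Tm6sf1 (0.0742). For Tnc they were Thy1 (0.206), the lipase Mgll (0.280) and Nkd2, an inhibitor of Wnt signalling (0.289). For Smoc1 they were ENSMUSG00000093098 (0.456) and ENSMUSG00000093337 (0.559), for which no symbol was matched, and Cspg4 (0.601). For Smoc2 they were the connexin gene Gjc1 (0.393), Dynap (0.425) and the actin-associated adaptor Sorbs2 (0.487). These distances describe the 6 libraries and carry no test. They were not scaled to the size of a change or to read number, so they cannot be compared between members.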

How the data were processed

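Each library has its own deposited table of raw read counts by Ensembl gene, not normalized by the authors, with 5 closing lines for unassigned reads. Per the submitters' processing notes TopHat2, Cuffdiff and DESeq2 and build mm9 were named, with no role or version. Which program counted the reads, with which annotation and strand setting, is not stated there. Reads with several alignments were 32.9% to 40.0% of listed reads and stayed out, as did reads in no gene (4.63% to 12.0%) and ambiguous reads (1.72% to 2.11%). Fn1, Tnc, Thbs1 and Spp1 overlap exons of another annotated gene, and for Fn1, Tnc and Thbs1 it lies on the opposite strand. Where that gene is listed it had at most 9 reads in any library. Symbols (32919 of 37991 identifiers, 86.6%) and exon lengths came from GENCODE M21 (GRCm38), a later build than the files', so the only coordinates given are those of the RefSeq promoter windows, in GRCm38.p6.

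Counts were analysed in R 4.3.3 with edgeR 4.0.16 (TMM, default expression filter, robust quasi-likelihood fit and test, Benjamini-Hochberg over 11887 genes, threshold 0.05), after a check on simulated data. The simulated libraries were drawn independently, so that check did not cover libraries of a shared mouse number. SE is the log2 fold change over the root of its F statistic. A floor of 3 counts stood at 0.0953 to 2.64 CPM in the Null libraries and 0.193 to 18.6 CPM in the WT libraries. Alternatives were RLE and upper-quartile scaling, DESeq2 1.42.0, no filter, at least 10 CPM in 3 libraries, each library left out, libraries of a shared mouse number summed (both pairs, or the WT pair, since the file of Null library 3 carries another number in its name) and limma-voom (limma 3.58.1) with a random effect of mouse number. All members were named; of related lists up to 4 genes and of marker lists up to 3 with the lowest adjusted p, and for each called member the 3 genes of nearest profile. Members and lists were chosen with earlier results of these data known. Replicate numbers only name libraries.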

Additional observations from a re-analysis of the deposited data

How the results depend on the processing

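No paired analysis was possible because the replicate numbers of the 2 groups follow deposit order and pair nothing. The falls of Smoc1, Smoc2 and Tnc kept direction and call in all 14 alternatives. The rises of Postn and Thbs2 kept their direction in all 14, and the report gives where their calls were lost; Thbs2 also lost its call with at least 10 CPM in 3 libraries (edgeR adjusted p = 0.0554), which left 1 member higher. Summing libraries of a shared mouse number, in both groups or in WT alone, left 3 members, 0 of them higher (edgeR adjusted p of Postn 0.166 and 0.0751, of Thbs2 0.122 and 0.0736). DESeq2, both other scalings, no filter and the random effect gave 5 members. With 1 library left out 3 to 4 members passed, 0 to 1 of them higher. Direction turned for 3 members that did not pass: Sparc (-0.14 without WT library 3), Thbs1 (-0.07 without WT library 1 and -0.30 without Null library 1) and Tgfbi (0.02 without WT library 2 and 0.12 without Null library 1). Their lowest and highest log2 fold changes over the 6 fits with 1 library left out were -0.14 and 0.58, -0.30 and 0.24, and -0.18 and 0.12; over all 14 alternatives Sparc reached 0.64, with the random effect. Of the related genes, 10 passed; 5 did with both pairs summed (2 lower), 6 with the WT pair summed (3 lower), 6 with the random effect (2 lower), and 4 to 10 with 1 library left out (3 to 4 higher, 1 to 7 lower). Over all genes 688 passed (269 higher, 419 lower); the higher numbered 165 with the WT pair summed and 533 with the random effect, and 179 to 855 genes passed with 1 library left out (59 to 421 higher, 120 to 434 lower; 179 without Null library 1, 225 without Null library 3 and 281 without WT library 3). The causes were not tested. Scaling moved the median of all genes by under 0.1 log2 units. WT library 2, where 3 counts stand at 18.6 CPM, holds 4 Smoc1 reads and 9 Smoc2 reads, so levels of both genes there are coarse.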
